A study of Rattus norvegicus with 29 samples.

Results

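The transcripts described here are those of 10 rat genes that cells use when amino acids run short or proteins misfold: the asparagine synthetase gene Asns, the serine synthesis genes Phgdh, Psat1 and Psph, the transcription factor genes Atf4, Atf5 and Ddit3, the feedback gene Trib3, the glutathione-degrading enzyme gene Chac1 and the hormone gene Fgf21. They were found by gene symbol among 27342 transcript clusters, the probe sets by which the array reads a transcript. A cluster was taken where the array's annotation gave it that single symbol. All 10 genes were found, among 14324 genes with such a cluster, and together they had 11 clusters because Psat1 had 2. No filter on low values was applied, so every member entered every test. They were chosen by symbol as genes of this pathway, with earlier results of these data known.

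When uncharged tRNA accumulates, when misfolded protein builds up in the endoplasmic reticulum or when heme or mitochondrial function fails, kinases phosphorylate the translation initiation factor eIF2 on its alpha subunit. General translation then slows, while the open reading frames upstream of the Atf4 coding sequence let ATF4 protein be made, so that ATF4 activity can rise with little change of its mRNA. ATF4 binds composite sites shared with C/EBP factors and turns on genes for amino acid synthesis, uptake and tRNA charging. In liver it also drives Fgf21, which acts on adipose tissue and brain. Ddit3 encodes CHOP, which joins ATF4 at many of these genes when stress lasts, and TRIB3 restrains both.

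Liver was taken from male Crl:CD Sprague-Dawley rats that received PMCol or only its methylcellulose vehicle by oral gavage every day. The labels give an age of 6 to 7 weeks, and the time to which this age refers was not settled here. PMCol is 2,2,5,7,8-pentamethyl-6-chromanol, a chromanol with the ring of vitamin E but without its long side chain. After 7 daily doses, 6 rats given 2000 mg/kg and 6 given vehicle were killed on day 8. After 28 daily doses, 6 rats given vehicle, 6 given 200 mg/kg and 5 given 2000 mg/kg were killed on day 29. Each of the 29 rats gave 1 piece of left lobe and 1 array, and replicates are labelled as biological. Animals given 200 mg/kg and killed on day 8 were not analysed here. Every group was gavaged, so no comparison is with untreated rats.

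The deposited values were taken as log2 signals from which each cluster's median over all arrays has been taken away. The log base was not given in the sources used here. A value of 0 is therefore the middle animal of the study for that cluster, and levels of different genes cannot be set against each other. A difference between groups is still a log2 fold change, unless an offset was added before the log, in which case the folds of weakly hybridised genes are understated. The SD of a whole array's values lay between 0.133 and 0.287, the widest being replicate 1 of the vehicle rats of day 29. A whole piece of liver was measured, so fewer cells of a type and less RNA per cell cannot be told apart. Among 9 measured hepatocyte markers, 6 were lower and 0 higher at 2000 mg/kg on day 8, with a median log2 difference of -0.18, and 4 were lower on day 29, with a median of -0.12. All 10 measured Kupffer cell and macrophage markers were lower at 2000 mg/kg on day 8, with a median of -1.03, and their mean centred value per animal ran from -0.64 to 0.10 there, against 0.39 to 1.27 with vehicle. On day 29 the mean of the same markers ran from -0.82 to 0.49 at 2000 mg/kg, against -0.55 to 0.84 with vehicle, and 0 of 10 were called by limma. Of 9 stellate cell markers, 8 were lower at 2000 mg/kg on day 29, with a median of -0.70. Of all clusters, 9.32% were called lower at 2000 mg/kg on day 8 and 9.55% on day 29. The part of these marker shifts in the results below was not tested.

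Asns had the largest rise of the 11 member clusters at 2000 mg/kg on both days. Asns was 5.95-fold higher at 2000 mg/kg than with vehicle on day 8 and 6.46-fold higher on day 29, and it was the single member called higher at 200 mg/kg. Phgdh and 1 cluster of Psat1 rose at 2000 mg/kg on both days, whereas Psph, the last enzyme of the same serine pathway, did not pass the test in any comparison. The stress regulators did not follow them as a block: Trib3 rose, Atf4 was called higher on day 8, Ddit3 and Chac1 were called lower on day 29, and Fgf21 was called higher on day 29. A cluster was called where the limma fit over all 29 animals gave a Benjamini-Hochberg adjusted p under 0.05 across all clusters, two-sided.

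At 2000 mg/kg on day 8, 5 of the 11 member clusters were called, all 5 higher, where 18.6% of all clusters were called in either direction and 9.32% were called higher. At 2000 mg/kg on day 29, 8 of 11 were called, 6 higher and 2 lower, where 21.6% of all clusters were called, 12.1% higher and 9.55% lower. At 200 mg/kg on day 29, 2 of 11 were called, 1 higher and 1 lower, where 2.78% of all clusters were called, 1.37% higher and 1.42% lower. Between 2000 and 200 mg/kg on day 29, 5 of 11 were called and all 5 were higher at the higher dose, where 9.89% of all clusters were called, 6.05% higher and 3.84% lower. Groups without any overlap were counted as well. At 2000 mg/kg on day 8 all treated rats stood above all vehicle rats in 4 member clusters and below them in 0, against 5.84% and 5.19% of all clusters (11.0% in either direction). At 2000 mg/kg on day 29 the counts were 2 above and 1 below, against 6.43% and 4.99% (11.4% in either direction). At 200 mg/kg they were 1 above and 0 below, against 0.83% and 0.684% (1.51% in either direction). Between 2000 and 200 mg/kg they were 3 above and 0 below, against 3.62% and 2.5% (6.12% in either direction). The comparisons of day 29 share the same 6 vehicle rats, so they are not independent of each other. The median log2 difference over all clusters was -0.0049 at 2000 mg/kg on day 8, 0.0025 at 2000 mg/kg on day 29, 0.0033 at 200 mg/kg and 0.0012 between the doses.

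**Figure D1:**
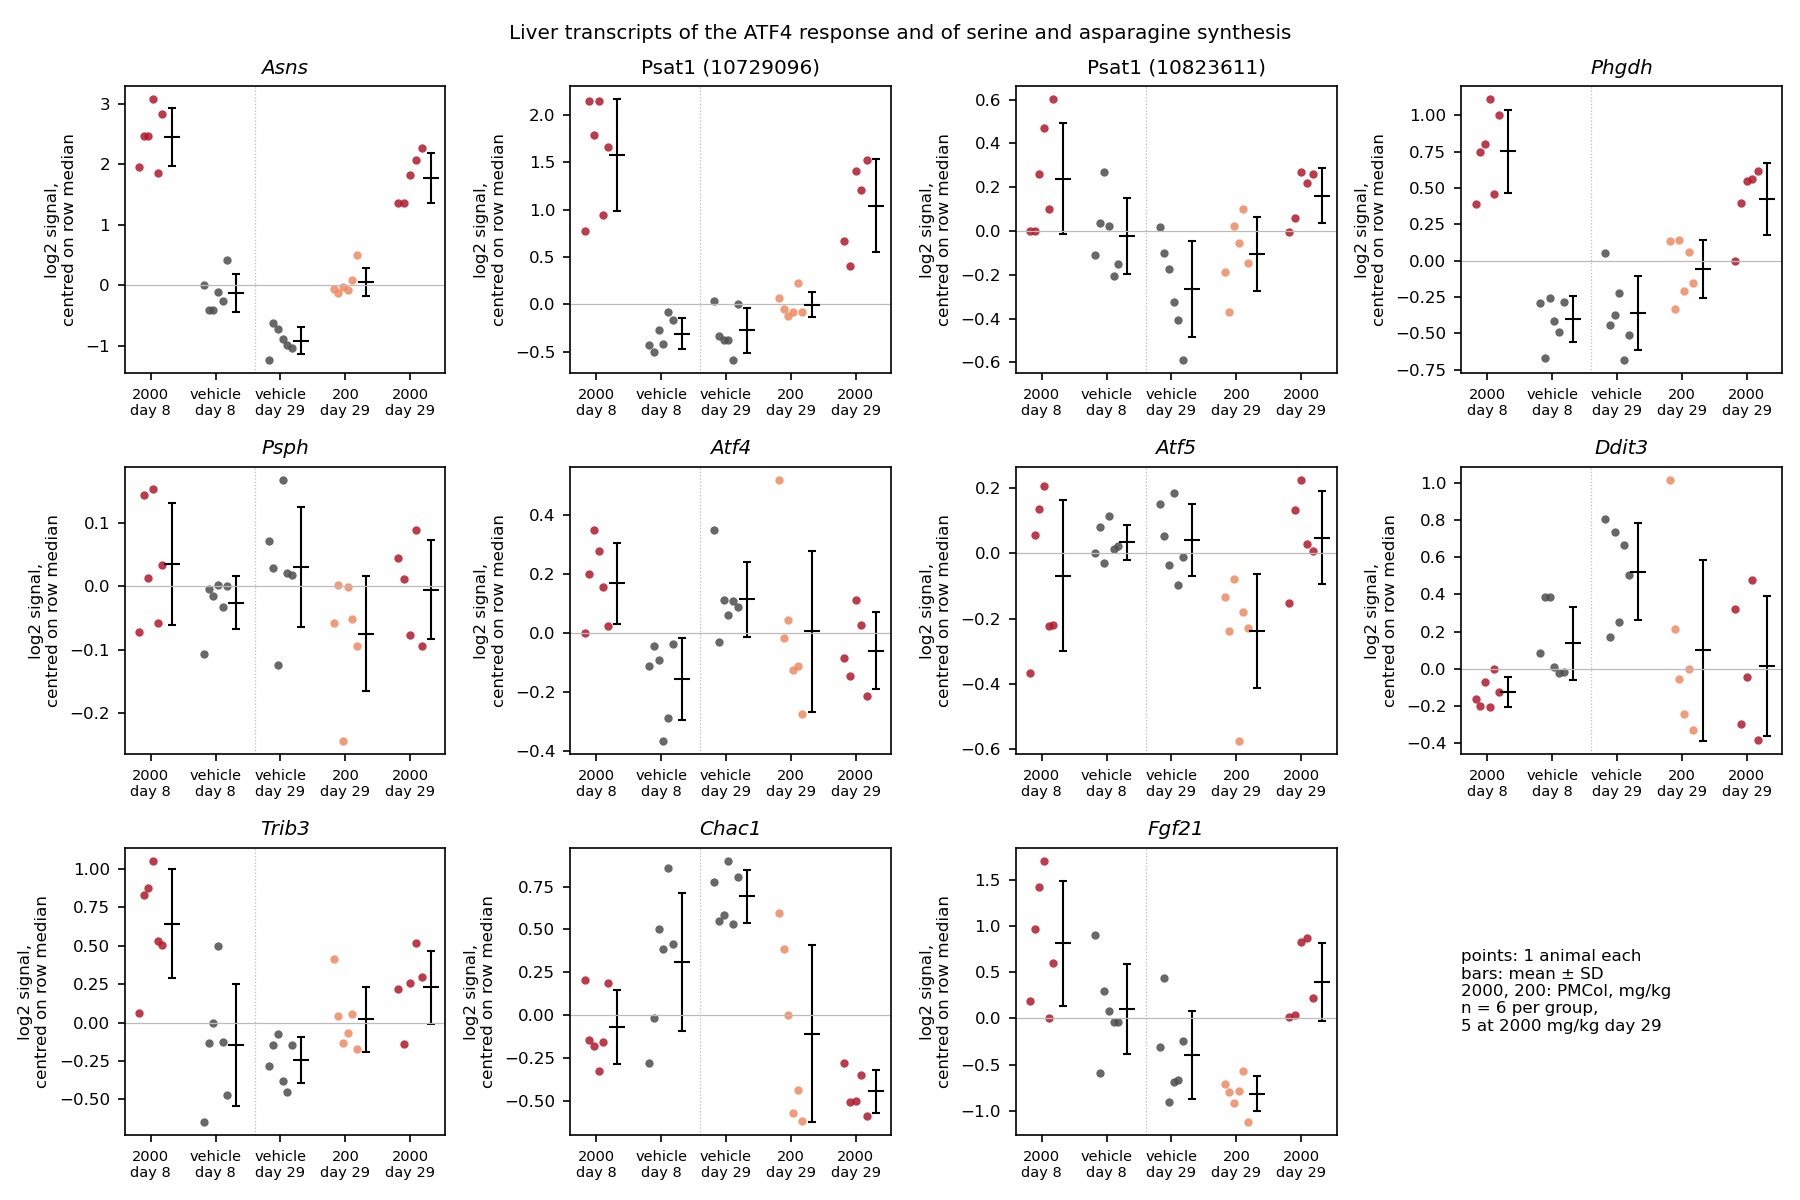
Centred log2 signal of each member cluster (y axis) in each of the 29 animals, by dose and day (x axis); each point is 1 animal and the bars give mean ± SD, with n = 6 per group and n = 5 at 2000 mg/kg on day 29. In the Asns panel the animals at 2000 mg/kg lie between 1.36 and 3.08 and every other animal lies at or below 0.50, while in the Chac1 panel the vehicle rats of day 29 have the highest mean.

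**Figure D2:**
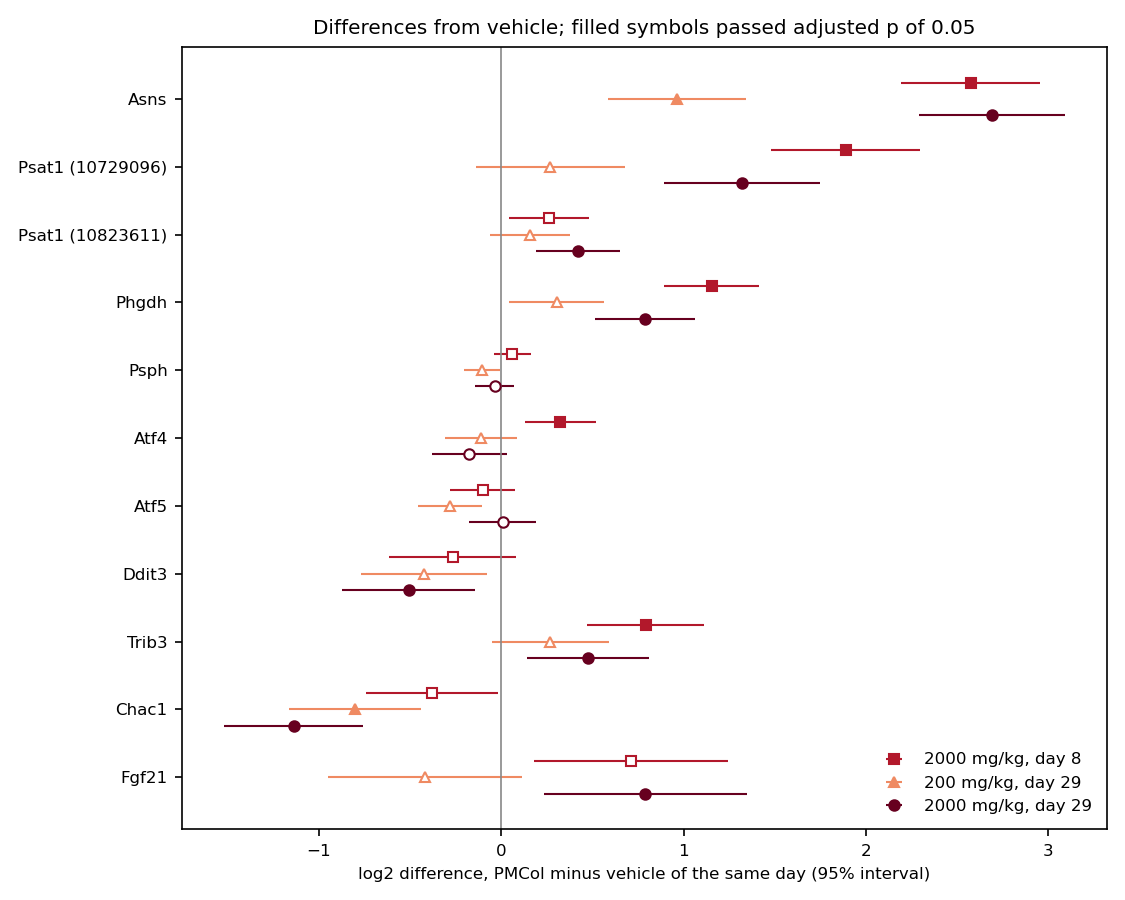
Log2 difference between PMCol and vehicle of the same day (x axis, with its 95% interval) for each member cluster (y axis), with squares for 2000 mg/kg on day 8, triangles for 200 mg/kg on day 29 and circles for 2000 mg/kg on day 29. Filled symbols passed an adjusted p of 0.05: Asns is filled at all 3, Psph and Atf5 at none.

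Asns lies on chromosome 4 (36752061 to 36769970, assembly GRCr8) and encodes asparagine synthetase, which makes asparagine from aspartate and glutamine. On day 8 its centred value ran from 1.86 to 3.08 with a median of 2.47 at 2000 mg/kg, against -0.41 to 0.41 with a median of -0.18 with vehicle. All 6 treated rats stood above all 6 vehicle rats. The log2 difference was 2.57 ± 0.19 (SE, n = 6 each), with an adjusted p of 4.39e-11.

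On day 29 Asns ran from -1.24 to -0.63 with a median of -0.94 with vehicle, and from -0.13 to 0.50 with a median of -0.05 at 200 mg/kg. The 5 rats at 2000 mg/kg had 1.36, 1.36, 1.82, 2.07 and 2.27. The 3 dose groups did not overlap, so that every rat at the lower dose stood above every vehicle rat and below every rat at the higher dose. The log2 difference from vehicle was 0.96 ± 0.19 at 200 mg/kg (adjusted p = 0.00307), a fold of 1.95, and 2.69 ± 0.19 at 2000 mg/kg (adjusted p = 3.95e-11). Between 2000 and 200 mg/kg it was 1.73 ± 0.19 (adjusted p = 6.38e-07). An exact two-sided permutation test on the animals of each pair of PMCol and vehicle groups gave p = 0.00216 for Asns in all 3 comparisons, the smallest that 6 against 6 or 5 against 6 animals allow.

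The Asns values of vehicle rats also differed by day. They were lower on day 29 than on day 8 by a log2 difference of -0.79 ± 0.19 (adjusted p = 0.0224), with no overlap between the groups, where 2.73% of all clusters were called between these groups, 1.77% lower and 0.962% higher, and 0.706% had every day 29 rat below. Asns was the 1 member cluster of 11 that was called between the vehicle groups. This call was lost without replicate 1, 5 or 6 of the day 29 vehicle rats or replicate 6 of the day 8 vehicle rats, the highest adjusted p being 0.064. Cell type markers moved in the same comparison. All 10 Kupffer cell and macrophage markers were lower on day 29, with a median log2 difference of -1.02, and their mean centred value per animal ran from -0.55 to 0.84 on day 29, against 0.39 to 1.27 on day 8. Of 4 endothelial markers 3 were lower, with a median of -0.57, and of 4 erythrocyte markers 1 was lower, Slc4a1, while 0 of 9 hepatocyte markers were called by limma. Their part in the Asns difference between vehicle groups was not tested. The vehicle groups were different rats, killed after 7 or after 28 daily doses. The number of doses therefore cannot be told apart from the day, nor can age if dosing began at the same age. The rise over vehicle of the same day had nearly the same size on both days, with a change of 0.12 on the log2 scale from day 8 to day 29 (95% interval -0.43 to 0.67). From lowest to highest mean, the Asns groups stood as vehicle on day 29 (-0.92 ± 0.22, SD), vehicle on day 8 (-0.13 ± 0.31), 200 mg/kg on day 29 (0.05 ± 0.23), 2000 mg/kg on day 29 (1.77 ± 0.41) and 2000 mg/kg on day 8 (2.44 ± 0.48). The ranges of vehicle on day 8 and 200 mg/kg on day 29 overlapped, and so did those of the groups at 2000 mg/kg.

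Phgdh, on chromosome 2 (188595700 to 188624789), encodes phosphoglycerate dehydrogenase, the first enzyme that branches off glycolysis towards serine. On day 8 it ran from 0.39 to 1.11 with a median of 0.77 at 2000 mg/kg, against -0.67 to -0.26 with a median of -0.35 with vehicle. The groups did not overlap. The log2 difference was 1.15 ± 0.13 (adjusted p = 1.24e-07), a fold of 2.22. On day 29 Phgdh ran from -0.68 to 0.06 with a median of -0.41 with vehicle and from -0.33 to 0.14 with a median of -0.05 at 200 mg/kg, and the 5 rats at 2000 mg/kg had 0.00, 0.40, 0.55, 0.56 and 0.61. Of the 5, 1 rat lay within the vehicle range and 4 lay above it. The log2 difference was 0.79 ± 0.13 at 2000 mg/kg (adjusted p = 6.48e-05) and 0.30 ± 0.13 at 200 mg/kg (adjusted p = 0.257). Between 2000 and 200 mg/kg it was 0.48 ± 0.13 (adjusted p = 0.0189), a call that was lost without replicate 4 or 5 of the 2000 mg/kg rats or replicate 2 of the 200 mg/kg rats, with an adjusted p of up to 0.0681.

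Psat1, on chromosome 1 (222623553 to 222646187), encodes phosphoserine aminotransferase, the enzyme after Phgdh. The annotation gave this symbol and the same accessions to 2 clusters, 10729096 and 10823611, which differed in size of response. In cluster 10729096 the day 8 values ran from 0.77 to 2.15 with a median of 1.72 at 2000 mg/kg, against -0.51 to -0.08 with a median of -0.34 with vehicle. In cluster 10823611 they ran from -0.00013 to 0.60 with a median of 0.18 at 2000 mg/kg, against -0.21 to 0.27 with a median of -0.04 with vehicle. The first cluster separated the groups and the second did not. Their log2 differences on day 8 were 1.89 ± 0.20 (adjusted p = 5.01e-08), a fold of 3.70, and 0.26 ± 0.11 (adjusted p = 0.0933). The second became called without replicate 3 of the vehicle rats, with an adjusted p of 0.0405.

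On day 29 cluster 10729096 of Psat1 ran from -0.59 to 0.03 with a median of -0.36 with vehicle and from -0.13 to 0.23 with a median of -0.06 at 200 mg/kg, and the 5 rats at 2000 mg/kg had 0.40, 0.66, 1.21, 1.41 and 1.53. Every rat at 2000 mg/kg stood above every other rat of that day. The log2 difference from vehicle was 1.32 ± 0.21 at 2000 mg/kg (adjusted p = 2.44e-05) and 0.27 ± 0.20 at 200 mg/kg (adjusted p = 0.636), and between 2000 and 200 mg/kg it was 1.05 ± 0.21 (adjusted p = 0.00113). In cluster 10823611 the 5 rats at 2000 mg/kg had -0.0040, 0.06, 0.22, 0.26 and 0.27, against -0.59 to 0.02 with a median of -0.25 with vehicle. Its log2 difference was 0.42 ± 0.11 (adjusted p = 0.00648), so both clusters were called higher on day 29, by folds of 2.49 and 1.34. Which stretch of sequence each cluster's probes cover was not used here, and the part of cross-hybridisation in the gap between them was not tested.

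Psph, on chromosome 12 (32527091 to 32541182), encodes phosphoserine phosphatase, which releases free serine. Its values were packed closely in all groups, from -0.07 to 0.15 at 2000 mg/kg and from -0.11 to 0.0022 with vehicle on day 8. On day 29 they ran from -0.12 to 0.17 with vehicle and from -0.24 to 0.0022 at 200 mg/kg, and the 5 rats at 2000 mg/kg had -0.09, -0.08, 0.01, 0.04 and 0.09. The log2 difference at 2000 mg/kg was 0.06 on day 8 (95% interval -0.04 to 0.16) and -0.04 on day 29 (95% interval -0.14 to 0.07). Both intervals leave out a rise of the size measured for Phgdh, on the scale of the deposited values. How far the Psph signal stood above background was not known, so an understated fold and an absent rise cannot be told apart.

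Atf4 lies on chromosome 7 (113684681 to 113686739) and encodes the transcription factor at the centre of this response. On day 8 its values ran from 0.00 to 0.35 with a median of 0.18 at 2000 mg/kg, against -0.37 to -0.04 with a median of -0.10 with vehicle. The groups did not overlap, but the difference was small: 0.32 ± 0.10 on the log2 scale (adjusted p = 0.0155), a fold of 1.25. On day 29 Atf4 ran from -0.03 to 0.35 with a median of 0.10 with vehicle and from -0.28 to 0.52 with a median of -0.07 at 200 mg/kg, and the 5 rats at 2000 mg/kg had -0.21, -0.14, -0.09, 0.03 and 0.11. The day 29 groups overlapped, with log2 differences of -0.18 ± 0.10 at 2000 mg/kg (adjusted p = 0.234) and -0.11 ± 0.10 at 200 mg/kg (adjusted p = 0.715). The vehicle rats themselves lay higher on day 29 than on day 8 without overlap, by 0.27 ± 0.10 (adjusted p = 0.115), where 0.541% of all clusters had every day 29 rat above and 1.25% no overlap in either direction. The change of the 2000 mg/kg effect from day 8 to day 29 was -0.50 ± 0.14 (adjusted p = 0.0771), which did not pass. It was called without replicate 2 of the day 29 vehicle rats (adjusted p = 0.0466), with array quality weights (0.0332) and with only the 4 groups compared in the fit (0.0307).

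Atf5, on chromosome 1 (104432094 to 104437611), encodes a factor related to ATF4 that is made under the same translational control and is known for a role in the mitochondrial stress response. Its values at 2000 mg/kg on day 8 ran from -0.36 to 0.21 with a median of -0.08, against -0.03 to 0.11 with a median of 0.02 with vehicle. Treated rats lay both above and below the vehicle rats, and the log2 difference was -0.10 ± 0.09 (adjusted p = 0.485). On day 29 it ran from -0.10 to 0.18 with a median of 0.02 with vehicle and from -0.57 to -0.08 with a median of -0.20 at 200 mg/kg, and the 5 rats at 2000 mg/kg had -0.15, 0.01, 0.03, 0.13 and 0.22. The group at 200 mg/kg was the low one, with a difference from vehicle of -0.28 ± 0.09 (adjusted p = 0.0812, exact permutation p = 0.00433). Between 2000 and 200 mg/kg the difference was 0.29 ± 0.09 (adjusted p = 0.0407). That call was lost without any 1 of 8 animals (replicates 2, 3, 4 and 5 at 2000 mg/kg, replicates 2, 4, 5 and 6 at 200 mg/kg), with an adjusted p of up to 0.111.

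Ddit3, on chromosome 7 (65001695 to 65006517), encodes CHOP, the factor whose induction is the usual sign of lasting endoplasmic reticulum stress. It was not called higher in any comparison. On day 8 it ran from -0.21 to 0.00 with a median of -0.14 at 2000 mg/kg, against -0.02 to 0.39 with a median of 0.05 with vehicle. The treated rats lay at or below the low end of the vehicle range, with overlap at that end. The difference was -0.27 ± 0.17 (adjusted p = 0.326, exact permutation p = 0.00649), and with only these 12 animals in the limma fit it was called (adjusted p = 0.0283). On day 29 Ddit3 ran from 0.17 to 0.81 with a median of 0.58 with vehicle and from -0.33 to 1.02 with a median of -0.03 at 200 mg/kg, and the 5 rats at 2000 mg/kg had -0.38, -0.30, -0.05, 0.32 and 0.48. Most rats at either dose lay in the lower part of the vehicle range or below it, and replicate 1 at 200 mg/kg lay above all vehicle rats. The log2 difference was -0.51 ± 0.18 at 2000 mg/kg (adjusted p = 0.0402) and -0.42 ± 0.17 at 200 mg/kg (adjusted p = 0.222). The fall at 2000 mg/kg was no longer called without replicate 2, 3 or 5 of the treated rats or replicate 1, 3, 5 or 6 of the vehicle rats, with an adjusted p of up to 0.14. At 200 mg/kg a fall of -0.61 was called without replicate 1 of the treated rats (adjusted p = 0.00961). Vehicle rats lay higher on day 29 than on day 8 by 0.39 ± 0.17, which did not pass (adjusted p = 0.219). The group means at 2000 mg/kg were -0.13 on day 8 and 0.02 on day 29, against 0.14 and 0.52 with vehicle.

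Trib3 encodes a pseudokinase that ATF4 and CHOP switch on and that in turn binds and restrains them. Chac1 encodes a gamma-glutamylcyclotransferase that cleaves glutathione and is a known target of ATF4 in human and mouse cells. Fgf21 encodes a fasting and stress hormone made by hepatocytes. These were the 3 members of 10 whose promoter window (250 bases before to 50 after the start site in RefSeq, GRCr8) held the letters TGATGNAA on either strand, the core of the composite site for C/EBP and ATF4. The same letters were found in 1332 of 33469 promoters of that length, or 3.98%. The bases before the start site are shown because these genes share the letters and yet differed in direction. The match is in capitals and reads TGATGTAA or TGATGCAA on the strand opposite to the gene.

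Trib3, chr3:161275534-161275783, minus strand:
Trib3: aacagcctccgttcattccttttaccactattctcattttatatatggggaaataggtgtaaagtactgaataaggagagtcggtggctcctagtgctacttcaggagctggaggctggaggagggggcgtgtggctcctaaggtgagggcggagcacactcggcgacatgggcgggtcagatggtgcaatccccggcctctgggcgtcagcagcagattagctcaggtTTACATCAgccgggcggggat
Chac1, chr3:126795881-126796130, plus strand:
Chac1: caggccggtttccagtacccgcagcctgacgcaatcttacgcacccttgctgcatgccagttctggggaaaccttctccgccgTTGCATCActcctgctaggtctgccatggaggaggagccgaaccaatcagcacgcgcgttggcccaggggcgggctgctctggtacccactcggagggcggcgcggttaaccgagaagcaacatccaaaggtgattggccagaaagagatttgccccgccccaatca
Fgf21, chr1:105221377-105221626, minus strand:
Fgf21: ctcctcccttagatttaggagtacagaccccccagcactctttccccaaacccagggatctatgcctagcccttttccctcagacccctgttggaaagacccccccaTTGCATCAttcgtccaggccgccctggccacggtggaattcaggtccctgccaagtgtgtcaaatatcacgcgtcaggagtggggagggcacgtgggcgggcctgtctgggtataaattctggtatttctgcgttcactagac
The leftmost base of the match lies at -21 in Trib3, -167 in Chac1 and -143 in Fgf21 from the start site, and Chac1 and Fgf21 hold the same 8 letters. No such letters were in the windows of the other 7 members. For Asns, Psat1 and Atf5 the window lies inside the gene bounds given here, so the gene reaches further upstream than the window, and that sequence was not searched. A match is only a run of letters in a window, not a bound site.

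Trib3 (chromosome 3, 161269939 to 161275533) ran from 0.06 to 1.05 with a median of 0.68 at 2000 mg/kg on day 8, against -0.65 to 0.50 with a median of -0.13 with vehicle. Of the 6 treated rats, 5 stood above every vehicle rat. The log2 difference was 0.79 ± 0.16 (adjusted p = 0.000452), a fold of 1.73. On day 29 it ran from -0.45 to -0.07 with a median of -0.21 with vehicle and from -0.17 to 0.41 with a median of -0.01 at 200 mg/kg, and the 5 rats at 2000 mg/kg had -0.14, 0.22, 0.26, 0.30 and 0.52. Of the 5, 1 rat lay within the vehicle range and 4 above it. The difference was 0.48 ± 0.16 at 2000 mg/kg (adjusted p = 0.0368) and 0.27 ± 0.16 at 200 mg/kg (adjusted p = 0.489). The call on day 29 was lost without replicate 1, 3, 4 or 5 of the treated rats or replicate 1, 4 or 5 of the vehicle rats, with an adjusted p of up to 0.111.

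Chac1 (chromosome 3, 126796131 to 126799352) went the other way. On day 29 it ran from 0.53 to 0.90 with a median of 0.68 with vehicle and from -0.62 to 0.59 with a median of -0.22 at 200 mg/kg, and the 5 rats at 2000 mg/kg had -0.59, -0.51, -0.50, -0.35 and -0.28. All rats at 2000 mg/kg stood below all vehicle rats, and 5 of 6 rats at 200 mg/kg stood below them. The log2 difference was -1.14 ± 0.19 at 2000 mg/kg (adjusted p = 3.78e-05), a fold of 0.455, and -0.80 ± 0.18 at 200 mg/kg (adjusted p = 0.0104). The fall at 200 mg/kg was not called with only the animals of those groups in the fit (adjusted p = 0.0678). On day 8 Chac1 ran from -0.32 to 0.20 with a median of -0.15 at 2000 mg/kg, against -0.28 to 0.86 with a median of 0.40 with vehicle, and the difference of -0.38 ± 0.18 did not pass (adjusted p = 0.151). It was called without replicate 1 of the vehicle rats (adjusted p = 0.0469). The effect at 2000 mg/kg changed by -0.76 ± 0.26 from day 8 to day 29, which did not pass (adjusted p = 0.158). Vehicle rats lay higher on day 29 than on day 8 by 0.38 ± 0.18, which did not pass either (adjusted p = 0.246). The group means at 2000 mg/kg were -0.07 on day 8 and -0.44 on day 29, against 0.31 and 0.69 with vehicle.

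Immediate early genes, which respond within minutes to growth signals and handling, were followed in a further list. Of 13 measured genes of this list, which was put together after the data were seen, 8 were lower and 0 higher at 2000 mg/kg on day 29, 3 were lower at 200 mg/kg and 4 were lower at 2000 mg/kg on day 8. In the same order, 9.55%, 1.42% and 9.32% of all clusters were called lower. Their mean centred value per animal ran from 0.24 to 0.86 with vehicle, from -0.44 to 0.69 at 200 mg/kg and from -0.83 to -0.35 at 2000 mg/kg on day 29. On day 8 it ran from -0.59 to 0.15 at 2000 mg/kg, against -0.19 to 0.41 with vehicle. Their part in the results for Chac1 and Ddit3 was not tested.

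Fgf21 (chromosome 1, 105219825 to 105221376) was spread widely between animals, with an SD of 0.68 at 2000 mg/kg and 0.49 with vehicle on day 8. On day 8 it ran from 0.00 to 1.70 with a median of 0.78 at 2000 mg/kg, against -0.59 to 0.90 with a median of 0.02 with vehicle. The groups overlapped, and the difference of 0.71 ± 0.26 missed the threshold (adjusted p = 0.0553). It was called without replicate 1 or 5 of the treated rats or replicate 1 of the vehicle rats, with an adjusted p down to 0.0172. On day 29 it ran from -0.91 to 0.43 with a median of -0.49 with vehicle and from -1.12 to -0.57 with a median of -0.79 at 200 mg/kg, and the 5 rats at 2000 mg/kg had 0.01, 0.04, 0.22, 0.82 and 0.87. All rats at 2000 mg/kg stood above all rats at 200 mg/kg, and 1 of the 6 vehicle rats lay within the range of the 2000 mg/kg rats. The difference from vehicle was 0.79 ± 0.27 at 2000 mg/kg (adjusted p = 0.0364) and -0.42 ± 0.26 at 200 mg/kg (adjusted p = 0.526). Between 2000 and 200 mg/kg it was 1.21 ± 0.27 (adjusted p = 0.0037), a fold of 2.31. Vehicle rats lay lower on day 29 than on day 8, at -0.50 ± 0.26, which did not pass (adjusted p = 0.31). The group means at 2000 mg/kg were 0.81 on day 8 and 0.39 on day 29, against 0.10 and -0.40 with vehicle. The call against vehicle on day 29 was lost without replicate 3, 4 or 5 of the treated rats or replicate 3, 4 or 5 of the vehicle rats, with an adjusted p of up to 0.11, and the call between the doses was kept without any 1 of the 11 rats of those doses, with an adjusted p of up to 0.0178.

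No member passed limma's test of a change in the 2000 mg/kg effect between day 8 and day 29, where 0.775% of all clusters did, 0.472% towards higher and 0.304% towards lower. At an unadjusted p under 0.05, Atf4 and Chac1 passed. The interval of that change was wide for most members, for example -1.16 to 0.02 for Psat1 cluster 10729096, -0.74 to 0.01 for Phgdh and -0.69 to 0.85 for Fgf21. For Trib3 it ran from -0.78 to 0.15. Equal effects on the days are therefore not shown for these genes.

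Few pairs of members were correlated within groups beyond the test. The 11 clusters make 55 pairs, and for each pair the deviations of the 29 animals from their group means were correlated, with a p from permuting animals within groups. Of the 55 pairs, 4 passed an adjusted p of 0.05 for r and 3 for rho. All values of an animal come from 1 array and 1 piece of liver. Among those that passed for r were both Psat1 clusters with Phgdh. For cluster 10823611 Pearson's r was 0.66 (p = 0.00071, adjusted over the pairs 0.0195) and Spearman's rho 0.69 (p = 0.00033, adjusted 0.0181). For cluster 10729096 r was 0.64 (p = 0.00174, adjusted 0.0319) and rho 0.56 (p = 0.00563, adjusted 0.0619). Without the 2 animals farthest from the median of Psat1, r was 0.64 and 0.63 for these clusters. The rho of cluster 10729096 did not pass. The Psat1 clusters did not pass with each other, with an r of 0.32 (p = 0.165, adjusted 0.34) and a rho of 0.29 (p = 0.174, adjusted 0.383).

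Atf4 and Ddit3 passed for both measures, with r of 0.74 (p = 0.00034, adjusted 0.0187) and rho of 0.60 (p = 0.00105, adjusted 0.0289). Replicate 1 at 200 mg/kg was the highest animal for both, and without the 2 animals farthest from the median of Atf4 r was 0.52. Phgdh and Atf5 had an r of 0.60 (p = 0.00332, adjusted 0.0456) and a rho of 0.53 (p = 0.0132, adjusted 0.104). Psat1 cluster 10729096 and Fgf21 had an r of 0.60 (p = 0.00723, adjusted 0.0663) and a rho of 0.64 (p = 0.00265, adjusted 0.0486).

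**Figure D3:**
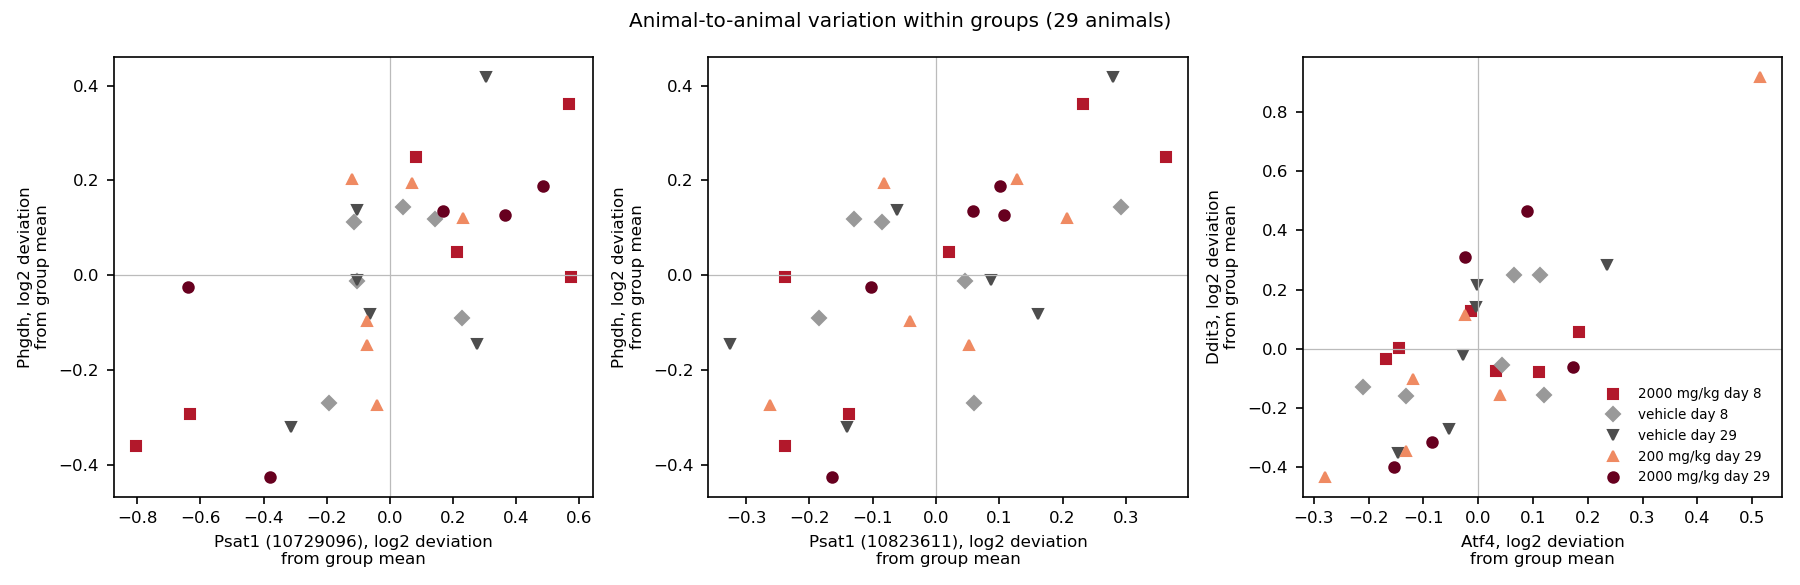
Deviation of each of the 29 animals from its group mean, in log2 units, for Psat1 clusters 10729096 and 10823611 against Phgdh (left and middle) and for Atf4 against Ddit3 (right), with a symbol for each group. The points rise to the right in each panel (r = 0.64, 0.66 and 0.74), and in the right panel 1 animal at 200 mg/kg lies far out.

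Further genes of the pathway were followed in lists, whose counts stand against these shares of all clusters. At 2000 mg/kg on day 8, 9.32% of all clusters were called higher and 9.32% lower. At 2000 mg/kg on day 29 the shares were 12.1% higher and 9.55% lower, and at 200 mg/kg 1.37% higher and 1.42% lower. Of 22 other target genes of ATF4 and CHOP, 11 were higher and 2 lower at 2000 mg/kg on day 8, with a median of 0.34, and 7 were higher and 4 lower on day 29, with a median of 0.15. At 200 mg/kg 1 was higher, Ndrg1 (0.44 ± 0.07, adjusted p = 0.000335), and 0 were lower. On day 8 the largest rise among those called was that of Ddit4, an inhibitor of mTORC1, at 0.94 ± 0.16, which on day 29 was at 0.08 ± 0.16 (adjusted p = 0.805). Nars1, which charges tRNA with asparagine, rose by 0.53 ± 0.09 on day 8 and 0.43 ± 0.09 on day 29, and Pck2, the mitochondrial phosphoenolpyruvate carboxykinase, by 0.49 ± 0.07 and 0.66 ± 0.08. Eif4ebp1, a brake on translation initiation, rose by 0.50 ± 0.06 and 0.48 ± 0.06. Cth, which makes cysteine, fell on both days, at -0.66 ± 0.11 and -0.50 ± 0.11. Atf3 and Gdf15 were not called higher: Atf3 was at 0.92 ± 0.60 on day 8 (adjusted p = 0.34) and was lower on day 29 at -1.83 ± 0.63 (adjusted p = 0.0368), and Gdf15 was at 0.37 ± 0.30 and -0.08 ± 0.31, with adjusted p of 0.468 and 0.904.

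Of 13 genes that set or read eIF2alpha phosphorylation, 3 were higher and 1 lower on day 8, with a median of 0.11, and 5 were higher and 2 lower at 2000 mg/kg on day 29, with a median of 0.22. Eif2b2 and Eif2b3, subunits of the exchange factor that phosphorylated eIF2 blocks, rose on both days, Eif2b2 by 0.73 ± 0.10 and 0.47 ± 0.10. Eif2ak4, the kinase GCN2 that senses uncharged tRNA, was called on day 29 (0.31 ± 0.05, adjusted p = 6.8e-05) and not on day 8 (0.11 ± 0.05, adjusted p = 0.156). In vehicle rats Eif2ak4 itself was called lower on day 29 than on day 8, at -0.27 ± 0.05 (adjusted p = 0.00534). Ppp1r15a, the stress-induced phosphatase subunit GADD34 that CHOP switches on, fell by 1.76 ± 0.25 on day 29 and stood at -0.33 ± 0.24 on day 8 (adjusted p = 0.398). The change between the days passed the test for Ppp1r15a (-1.42 ± 0.35, adjusted p = 0.047). Atf3, Chac1 and Ddit3 were also called lower at 2000 mg/kg on day 29, as were 9.55% of all clusters. Whether these falls have a cause in common was not tested.

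Amino acid transporters split by gene. Of 21 measured, 5 were higher and 5 lower on day 8, and 7 were higher and 3 lower at 2000 mg/kg on day 29, with medians of -0.04 and -0.0070. Slc7a5 and Slc3a2, which together form the LAT1 exchanger for large neutral amino acids, rose by 1.41 ± 0.12 and 0.81 ± 0.11 on day 8 and by 1.37 ± 0.13 and 0.82 ± 0.11 on day 29. Slc6a9, a glycine transporter, rose by 0.89 ± 0.14 and 0.86 ± 0.14, and Slc7a11, the cystine transporter that NRF2 also controls, by 0.77 ± 0.14 and 0.75 ± 0.15. Slc38a2, the SNAT2 transporter of small neutral amino acids and a known ATF4 target, was at -0.15 ± 0.12 on day 8 (adjusted p = 0.436) and fell by 1.17 ± 0.12 on day 29, and this change passed the test (-1.02 ± 0.17, adjusted p = 0.00458). At 200 mg/kg 0 of the 21 were called by limma. Between the vehicle groups Slc38a2 was called higher on day 29 than on day 8, at 0.46 ± 0.12 (adjusted p = 0.0315). Slc3a2 was called lower there, at -0.40 ± 0.11 (adjusted p = 0.0408).

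Among enzymes that use serine, glycine, asparagine and aspartate, more were called lower than higher at 2000 mg/kg on each day. Of 22 genes of serine and glycine use and folate one-carbon transfer, 4 were higher and 10 lower at 2000 mg/kg on day 8, with a median of -0.16, and 4 were higher and 8 lower on day 29, with a median of -0.10. Sds, the serine dehydratase that turns serine into pyruvate, ran from -4.07 to -2.23 at 2000 mg/kg on day 8, against -0.51 to 0.26 with vehicle, a difference of -3.14 ± 0.31. On day 29 its difference at 2000 mg/kg was -3.48 ± 0.32, and at 200 mg/kg it was -0.44 ± 0.31 (adjusted p = 0.601). Gnmt, which methylates glycine, fell on both days, at -1.19 ± 0.11 and -1.37 ± 0.12. So did Gldc, which decarboxylates glycine, at -1.05 ± 0.14 and -1.29 ± 0.15. Shmt2, which splits serine in mitochondria, rose by 0.19 ± 0.06 and 0.53 ± 0.07. Mthfd2, the next enzyme of that mitochondrial folate route, rose by 0.53 ± 0.10 on day 8 and stood at 0.27 ± 0.10 on day 29 (adjusted p = 0.0663). Aldh1l2 fell by 0.48 ± 0.08 on day 8 and was at 0.12 ± 0.09 on day 29, a change that passed the test (0.60 ± 0.12, adjusted p = 0.0171).

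Of 14 other enzymes of asparagine, aspartate and glutamine, 1 was higher and 8 lower on each day at 2000 mg/kg, with medians of -0.24 on day 8 and -0.28 on day 29, and 0 were called at 200 mg/kg. Aspg, which splits asparagine back to aspartate, fell on both days, at -0.70 ± 0.11 on day 8 and -1.08 ± 0.11 on day 29. Got1, which makes aspartate in the cytosol, fell likewise, at -0.83 ± 0.14 and -1.29 ± 0.15. Cad, which starts pyrimidine synthesis from glutamine and aspartate, was the 1 that rose, by 0.26 ± 0.07 and 0.38 ± 0.08. Asns thus rose on both days while Aspg, an asparaginase gene, fell. Aspg was also called higher in vehicle rats on day 29 than on day 8, at 0.43 ± 0.11 (adjusted p = 0.0283). Asparagine breakdown as a whole was not measured.

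Chaperone genes of the endoplasmic reticulum and of its other stress branches were followed because PERK, the eIF2alpha kinase of that compartment, can drive ATF4. Of 18 measured, 7 were higher and 2 lower on day 8, with a median of 0.14, and 11 were higher and 1 lower at 2000 mg/kg on day 29, with a median of 0.27. Derl3, of the pathway that removes misfolded protein, rose by 1.93 ± 0.13 on day 8, by 2.59 ± 0.14 at 2000 mg/kg on day 29 and by 0.61 ± 0.13 at 200 mg/kg. Hspa5, the chaperone BiP, stood at 0.13 ± 0.06 on day 8 (adjusted p = 0.162) and rose by 0.20 ± 0.07 on day 29 (adjusted p = 0.0291), and Xbp1 fell on both days, at -0.63 ± 0.09 and -0.67 ± 0.10. Of 12 mitochondrial chaperones and proteases, 5 were higher and 2 lower on day 8 and 4 were higher and 1 lower on day 29, with medians of 0.10 and 0.04. Hspd1 and Hspe1, which form the mitochondrial chaperonin, rose by 0.51 ± 0.07 and 0.49 ± 0.05 on day 8 and by 0.26 ± 0.08 and 0.27 ± 0.06 on day 29. Hspd1 was called lower in vehicle rats on day 29 than on day 8, at -0.27 ± 0.07 (adjusted p = 0.0472).

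Of 13 genes for FGF21 receptors, inducers of Fgf21 and linked fasting genes, 1 was higher and 2 lower on day 8, and 3 were higher and 6 lower at 2000 mg/kg on day 29, with medians of -0.06 and -0.24. Of all clusters, 18.6% were called in either direction on day 8 and 21.6% on day 29, so the day 8 count is near that share. Ppara, the fatty acid receptor that drives Fgf21 in fasting, rose by 0.42 ± 0.12 on day 8 and 0.48 ± 0.13 on day 29. Fgfr4, the main FGF receptor of hepatocytes, fell on both days, at -0.80 ± 0.07 and -0.63 ± 0.07, and also at 200 mg/kg, at -0.30 ± 0.07 (adjusted p = 0.00891). Igfbp1, a fasting and ATF4-responsive gene, was at 0.05 ± 0.25 on day 8 (adjusted p = 0.937) and fell by 2.14 ± 0.26 on day 29, while Fgf21 was higher. Klb and Sesn2 had no cluster with a single symbol and were not analysed here.

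**Figure D4:**
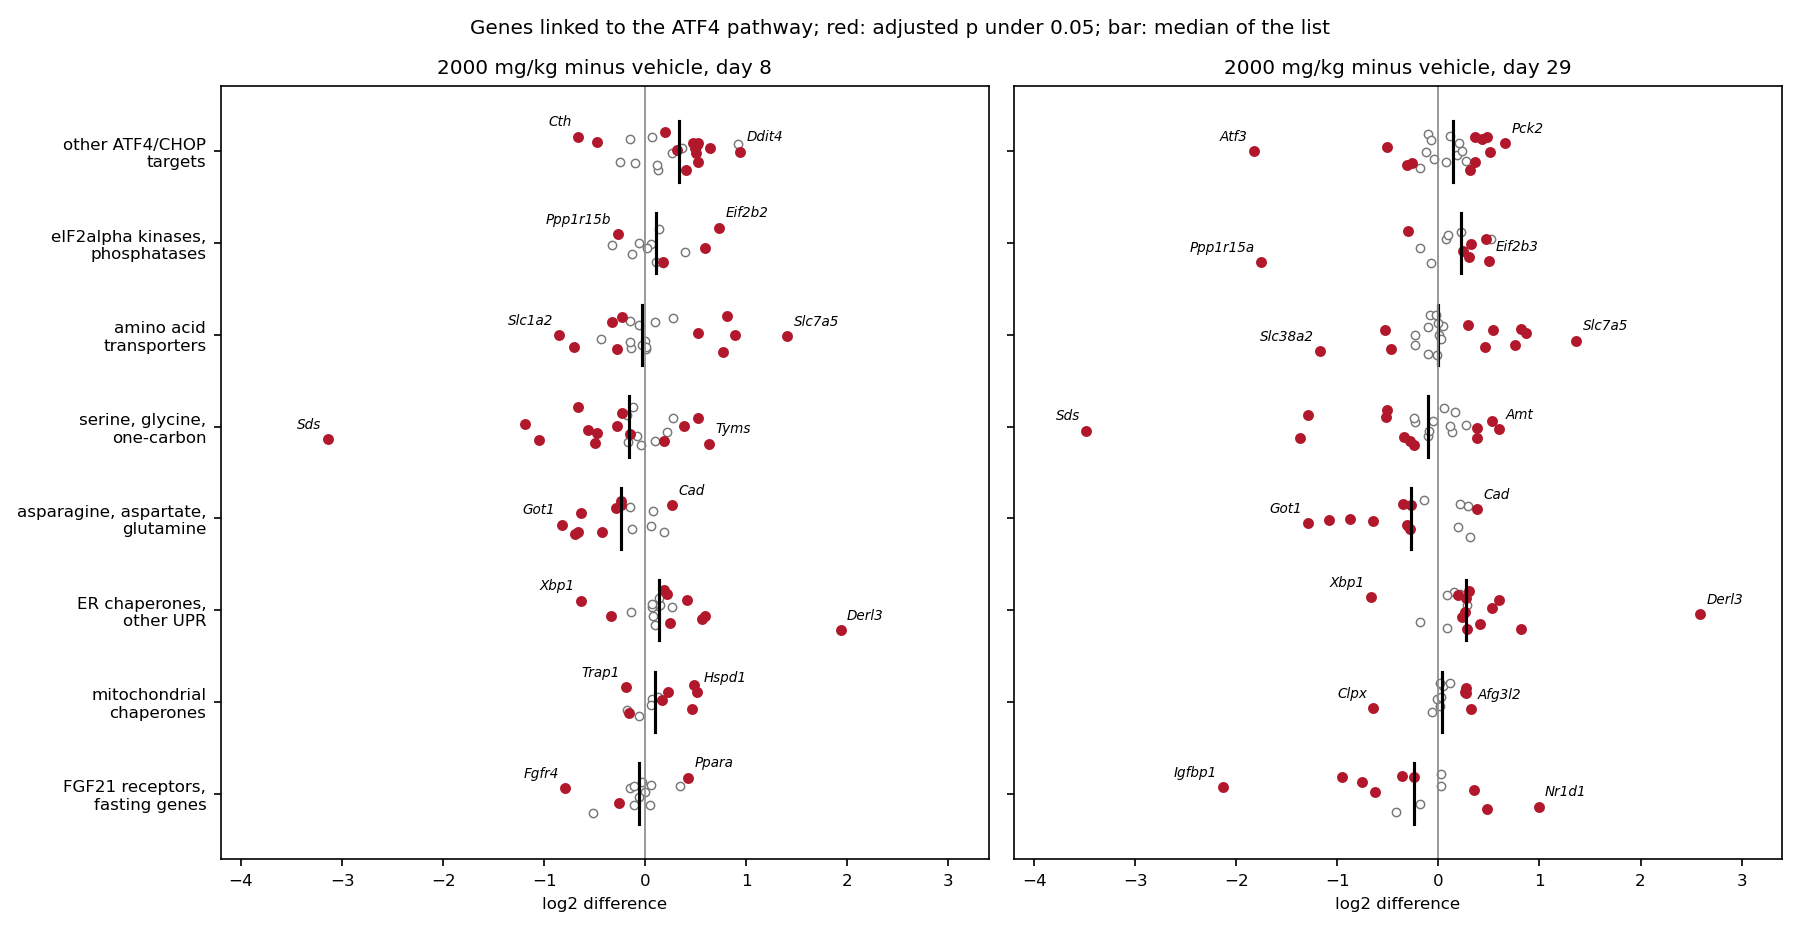
Log2 difference (x axis) between 2000 mg/kg PMCol and vehicle on day 8 (left) and day 29 (right) for each measured gene of 8 lists linked to the pathway (y axis); each point is 1 gene, red where the adjusted p was under 0.05, and the black bar is the list's median. Sds lies at -3.14 and -3.48, Derl3 at 1.93 and 2.59, and the medians lie within 0.34 of 0.

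The genes whose pattern was most like that of a member were ranked by Pearson's r over the 29 animals, dose effects included, among clusters with 1 symbol. Nearest to Asns were Coro6 (r = 0.97), Me1 (0.97), Snx10 (0.97), Htatip2 (0.97) and Pafah2 (0.97). Nearest to Phgdh were Coro6 (0.93), Yars1 (0.92), 2 clusters of Abcc4 (0.92 and 0.91) and Csmd1 (0.91), of which Yars1 encodes a tRNA synthetase. For Trib3 they were Bbs7 (0.85), Afg3l2 (0.82), Tkt (0.81), Kcmf1 (0.81) and Nup153 (0.80). For Fgf21 they were Eif2ak4 (0.79), Ppm1h (0.79), Gars1 (0.78), Hsdl2 (0.78) and Gas8 (0.77). Within groups, with the dose effects taken out, r for these same pairs was lower, at 0.44 to 0.68 for Asns, 0.41 to 0.68 for Phgdh, 0.43 to 0.70 for Trib3 and 0.30 to 0.63 for Fgf21. All these r are descriptions and carry no test.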

How the data were processed

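RNA from the livers of 29 rats was measured on whole-transcript microarrays from Affymetrix, with an array for each animal. The authors deposited a table of signals for 27342 transcript clusters, taken here as log2 values with each row centred on its median over the arrays. PLIER and MAS5 stand in the submitters' processing notes with neither version nor role. How arrays were normalized and centred, the log base and any offset were not given in the sources used here. The base was taken as 2. Levels were not recoverable, and depth does not apply: the number of arrays limits the precision. Batches were not tested, since neither slide nor scan date was used here.

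Groups came from the labels. The log2 values as deposited went into limma 3.58.1 (R 4.3.3): 1 mean for each of 5 groups over 29 animals, eBayes with no trend, two-sided tests, and p-values adjusted by Benjamini-Hochberg for all clusters of each comparison at a threshold of 0.05. The step was tested on simulated data. Genes were named from the platform annotation, which gave 1 symbol to 15097 clusters. All members are named whatever their change, with up to 4 of the largest called rises and falls per list and comparison and a fixed set of genes. The members and lists were chosen with earlier results of these data known. Of these, Cth, Aldh1l2, Mthfd2 and Gpt2 stand in more than 1 list. Promoters and gene positions came from RefSeq (GRCr8), which is not the array's own build. Exact permutation tests used the animals of the groups compared, and correlations used 100000 permutations within groups. Alternatives covered normalization, the clusters and animals in the fit, weights, trend and robust settings, thresholds and the replicate number as a block. Deviations from group means of same-numbered arrays of different groups had a median correlation of 0.0099 (56 pairs, -0.28 to 0.295). For arrays of other numbers the median was 0.0036 (280 pairs, -0.42 to 0.42). The labels name no pairing and the main fit used none, but a median near 0 cannot exclude one. On the values as deposited, arrays correlated pairwise at 0.725 at most, so none looked like another deposited again. Plots used matplotlib 3.10.9.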

Additional observations from a re-analysis of the deposited data

Results flagged for a closer look

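Of 55 sets of 5 or 6 animals, 1 for each member cluster and group, 3 held an animal that lay far from the others of its group by Dixon's criterion, and chance flags about 1 in 20. For Asns, replicate 6 at 200 mg/kg on day 29 had 0.50, and the nearest of its group had 0.08. For Psph, replicate 1 of the vehicle rats of day 8 had -0.11, and the nearest had -0.03. For Atf5, replicate 4 at 200 mg/kg on day 29 had -0.57, and the nearest had -0.24. The Asns call at 200 mg/kg held when any 1 animal of that group or of its vehicle group was left out. No cause was tested.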

How the results depend on the processing

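Over all alternatives to single members, 1337 results kept direction and side of the threshold, 44 lost the call, 17 gained it and 32 changed sign, while 115 counts stayed within 1.5 times and 18 did not. The results for single members include the exact permutation tests, whose unadjusted p was set against limma's adjusted p at the same threshold. Some of those that gained, such as Ddit3 at 2000 mg/kg on day 8, are therefore not calls by limma's adjusted p. With only the animals of the groups compared, 1 member cluster was called at 200 mg/kg and 1 in the change between days, and array quality weights also gave 1 in the change. At an adjusted p of 0.01 the counts were 5 at 2000 mg/kg on day 29, 1 at 200 mg/kg, 3 between the doses and 0 between vehicle groups. Leaving out each animal of the groups compared gave 5 to 7 calls at 2000 mg/kg on day 8, 5 to 8 on day 29 (5 without vehicle replicate 5 or 2000 mg/kg replicate 3 or 5), 2 to 3 at 200 mg/kg, 3 to 5 between the doses (3 without 2000 mg/kg replicate 4 or 5 or 200 mg/kg replicate 2), 0 to 1 in the change and 0 to 1 between vehicle groups. With the replicate block, the counts were 5, 7, 2, 4, 0 and 1 in the order of the report: 2000 mg/kg on day 8, 2000 mg/kg on day 29, 200 mg/kg, between doses, change and vehicle. The calls lost were Fgf21 on day 29 (adjusted p = 0.0591) and Atf5 between the doses (0.0604). Without vehicle replicates 1 and 2 of day 29 together, chosen after seeing the data, 6 were called at 2000 mg/kg on day 29, Ddit3 (0.0564) and Trib3 (0.0634) being lost. Quantile normalization lost Ddit3 (0.0579) and Fgf21 (0.0626) there. The causes were not tested.

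All results that changed sign were uncalled and near 0. Between vehicle groups Atf5 was -0.0016 with quantile normalization, -0.019 with array weights and -0.023 without vehicle replicates 1 and 2, Phgdh -0.020 and -0.046 under the last 2, and Psat1 -0.025 under the last. Ddit3 between doses was 0.0061 with weights, and Atf5 at 2000 mg/kg on day 29 -0.0028 with the block. Leaving out each animal gave, in the change between days, -0.0044 to 0.25 for Asns and -0.082 to 0.26 for Fgf21. Between vehicle groups it gave -0.025 to 0.099 for Psat1, -0.045 to 0.10 for Phgdh, -0.021 to 0.035 for Atf5 and -0.20 to 0.030 for Trib3. It gave -0.037 to 0.057 for Atf5 at 2000 mg/kg on day 29, and between doses -0.12 to 0.037 for Atf4 and -0.20 to 0.10 for Ddit3. Exact permutation tests within pairs of groups gave an unadjusted p under 0.05 for 6 clusters at 2000 mg/kg on day 8, 9 on day 29 and 6 at 200 mg/kg. Each of these counts mixes rises and falls. The test was run on the member clusters only, so the share of all clusters that would pass it is not known. How far each signal stood above background was not known.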
